A study of Mus musculus with 6 samples.

Results

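The bone morphogenetic protein (BMP), transforming growth factor beta (TGF-beta) and activin genes were followed in colon and liver of mice with colitis. They were taken as the genes of the array whose probe sets carry exactly 1 gene symbol and whose symbol names a Bmp, Bmpr, Tgfb, Smad, activin subunit (Inhba, Inhbb, Inhbc, Inhbe), Acvr, Gdf or Grem gene, Bambi, or Id1 to Id4. The rule used names and no measured value. It found 53 genes, read by 113 probe sets, of 18194 genes read by 34958 probe sets with 1 symbol. The 53 comprise 22 ligand genes, 12 receptor genes, 2 antagonists, 8 SMADs, 4 Id genes and 5 genes that share only the name pattern.

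Ligands of this family are secreted dimers. They bring type II and type I receptor kinases together at the cell surface, and the type I kinase phosphorylates receptor SMADs. In general SMAD2 and SMAD3 act downstream of TGF-beta and activins and SMAD1, SMAD5 and SMAD9 downstream of BMPs. These join SMAD4 and enter the nucleus, where the Id genes and the inhibitory SMAD6 and SMAD7 are well-known targets. In the gut, BMP signals from the stroma restrain crypt stem cells and stromal gremlin opposes them near the crypt base, while TGF-beta limits mucosal inflammation and drives matrix production. In the liver, BMP6 and BMP2 from sinusoidal endothelium act on hepatocytes to switch on the iron hormone hepcidin.

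All groups were male C57BL/6J mice, 7 weeks old, with 7 mice to a group. Mice labelled DSSPAR ate a basal diet with 2% parsley throughout and, after 7 days of plain water, were given 1.5% (w/v) dextran sodium sulphate in the drinking water, which damages the epithelium of the colon. Mice labelled DSS ate the basal diet and drank 1.5% dextran sodium sulphate after the same 7 days of plain water. Mice labelled CON had basal diet and plain water. The treatment protocols give 9 days on the polymer for DSSPAR and 10 days for DSS, whereas the growth protocol names only 9 days. The duration for DSS is thus not settled, and if it was 10 days, parsley and 1 day of exposure cannot be told apart. RNA of the 7 mice was pooled, and each group had 1 Affymetrix whole-genome mouse array per tissue, 6 arrays in all. No comparison therefore has replicates, an error between mice or a p-value. DSS against CON asks how the family stood in colitis, DSSPAR against DSS how it stood with parsley beside the polymer, and DSSPAR against CON how far the parsley-fed mice stood from healthy ones.

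Values are intensities on a linear scale made with MAS5, and are compared only between arrays of 1 tissue and probe set. The floor of a tissue was its median intensity over 3 arrays, 25.1 in colon and 96.6 in liver, and lower values were raised to it before any ratio. A gene counted as measured where 1 or both arrays of a comparison exceeded this floor. A ratio in which 1 array lay at the floor is a lower bound, given as "at least". Differences of 2-fold or more, a log2 ratio of 1, were counted. The only spread the data offer is that between probe sets of the same gene. The robust SD of their difference in log2 ratio in colon was 0.41 between DSS and CON, 0.36 between DSSPAR and DSS and 0.42 between DSSPAR and CON, and in liver 0.56, 0.57 and 0.48. It holds no difference between mice, pools or arrays.

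The arrays themselves differed in a few respects. The median over all probe sets shifted by -0.20 (log2) in DSSPAR against DSS and by -0.08 in DSS against CON in colon, and by -0.16 and -0.15 in liver, and by -0.28 in colon and -0.31 in liver in DSSPAR against CON, whereas the shift of probe sets above the floor lay between -0.04 and 0.01. A control probe set for 18S ribosomal RNA read 390.4 in DSSPAR, 4018 in DSS and 6156 in CON colon. Ratios of the 3′ to the 5′ probe sets of Gapdh lay between 0.70 and 0.85 in colon and between 1.07 and 1.54 in liver, the last in DSS. The tissue labels were set against markers. All 10 colon epithelium markers lay above the floor in colon and 6 of 10 lay under it in all liver arrays. All 8 hepatocyte markers lay above the floor in liver. In colon only 3 of these 8, Alb, Apoa1 and Fgb, lay under it on all arrays, and Ttr read 1547 in CON colon. The DSS colon array also held exocrine pancreas transcripts, with 8 of 10 markers at least 2-fold above CON and 8 of 10 at least 2-fold above DSSPAR (median log2 ratio 3.10 for DSS against CON). Their summed intensity was 2258 in DSSPAR, 4411 in DSS and 2774 in CON. Most of the DSSPAR and CON sums was Cela1, at 2036 in DSSPAR, 1628 in DSS and 2554 in CON, the only marker lower in DSS than in CON. The part of these transcripts in the values below was not tested.

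Of the 53 genes, 28 lay above the floor on all 6 arrays. In colon 33 did so on all 3 arrays and 40 on at least 1, and in liver 35 and 47. Inhbb, Inhbc and Inhbe, which encode activin beta subunits, and Gdf2, which encodes BMP9, lay above the floor on every liver array and under it on every colon array, read by the probe set that represents each gene there. Bmp10, Bmpr1b and Smad9 were above it on no array. Groups of genes can also be high or low because more or fewer cells of a type were in the sample, and in whole tissue this cannot be told apart from more or less RNA per cell.

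Promoters are shown for 5 genes, Grem1 and Inhbc, which passed 2-fold, Id3 and Smad6 as known direct targets, and Hamp, the hepcidin gene and best-known hepatic BMP target. Those of Id1, Smad7, Tgfbr3 and Bmp2 are not shown. The sequences come from the RefSeq promoter table with build GRCm38.p6 and run from 250 bases before to 50 bases after the transcript start, 5′ to 3′ on the gene's strand. Capitals mark the letters GGCGCC, a motif known from BMP target genes, the SMAD box CAGAC or its reverse complement GTCTG, and the palindrome GTCTAGAC, which was added after the sequences had been read and overlaps neither of the others here. Grem1 lies at chr2:113758599-113758898 on the minus strand, Id3 at chr4:136143572-136143871 on the plus strand, Smad6 at chr9:64022010-64022309 on the minus strand, Inhbc at chr10:127370499-127370798 on the minus strand and Hamp at chr7:30943980-30944279 on the minus strand.
Grem1: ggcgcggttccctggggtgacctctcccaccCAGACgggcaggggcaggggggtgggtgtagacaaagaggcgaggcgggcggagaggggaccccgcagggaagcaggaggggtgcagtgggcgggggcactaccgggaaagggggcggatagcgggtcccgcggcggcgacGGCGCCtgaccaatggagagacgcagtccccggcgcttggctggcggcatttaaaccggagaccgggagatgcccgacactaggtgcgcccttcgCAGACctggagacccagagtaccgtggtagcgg
Id3: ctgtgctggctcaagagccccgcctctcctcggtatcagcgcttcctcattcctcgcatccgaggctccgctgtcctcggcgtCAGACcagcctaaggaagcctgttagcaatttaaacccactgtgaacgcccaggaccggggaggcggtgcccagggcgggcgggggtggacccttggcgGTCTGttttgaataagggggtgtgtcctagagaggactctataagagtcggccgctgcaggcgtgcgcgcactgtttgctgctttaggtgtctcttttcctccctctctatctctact
Smad6: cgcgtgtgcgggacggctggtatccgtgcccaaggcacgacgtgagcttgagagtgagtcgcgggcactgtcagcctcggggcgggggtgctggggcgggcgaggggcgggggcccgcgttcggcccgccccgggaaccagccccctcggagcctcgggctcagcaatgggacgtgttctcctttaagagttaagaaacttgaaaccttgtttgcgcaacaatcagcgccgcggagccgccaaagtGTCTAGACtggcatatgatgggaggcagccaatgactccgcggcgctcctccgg
Inhbc: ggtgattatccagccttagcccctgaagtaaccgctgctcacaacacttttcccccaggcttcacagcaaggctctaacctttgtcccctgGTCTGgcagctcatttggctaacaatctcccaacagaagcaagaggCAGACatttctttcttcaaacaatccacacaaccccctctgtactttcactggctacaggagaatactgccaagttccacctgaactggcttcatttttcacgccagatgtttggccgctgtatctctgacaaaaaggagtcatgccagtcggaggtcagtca
Hamp: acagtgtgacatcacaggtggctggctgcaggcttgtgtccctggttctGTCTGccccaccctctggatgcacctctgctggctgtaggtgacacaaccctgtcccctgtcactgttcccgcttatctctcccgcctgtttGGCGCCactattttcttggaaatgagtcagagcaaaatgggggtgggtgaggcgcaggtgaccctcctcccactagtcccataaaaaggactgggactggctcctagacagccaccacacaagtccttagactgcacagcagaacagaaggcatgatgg

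The Grem1 promoter held GGCGCC 78 bases upstream of the start, and CAGAC 219 bases upstream and 18 bases downstream of it. In Hamp GGCGCC lay 109 bases and GTCTG 201 bases upstream. Id3 held CAGAC at 167 and GTCTG at 68 bases upstream, Inhbc GTCTG at 159 and CAGAC at 113, and Smad6 only the palindrome, 4 bases upstream. Promoters were found for 38 of the 53 genes, 45 promoters in all. GGCGCC was present on either strand in 14 of the 45 (31.1%), against 11.9% of all 32851 promoters of the table. CAGAC or GTCTG was present in 19 of the 45 (42.2%), against 49.6% of all. The palindrome was present in 1 of the 45 (2.22%), against 0.21% of all. That 1 is the Smad6 promoter shown above. As the palindrome was added after this sequence had been read, the match was fixed in advance and the shares cannot be compared. These are matches of letters, and binding was not measured.

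In colon, DSS against CON set a small part of the family apart. Of 40 measured genes 4 were at least 2-fold higher and 0 were at least 2-fold lower, against 5.18% and 1.97% of the 11952 genes measured on the whole array. The 4 were the BMP antagonist Grem1, the activin subunit Inhba, the ligand Bmp8b and the co-receptor Tgfbr3. The median log2 ratio of the family was 0.05, against 0.04 for all genes. It was 0.14 with arrays centred on their medians and -0.05 after quantile normalization, so the family as a whole had no settled direction.

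DSSPAR against DSS shares the DSS array with that comparison and ran the other way for all 4 of these genes, past 2-fold for 3. None of 36 measured genes was at least 2-fold higher and 3 (8.33%) were at least 2-fold lower, Grem1, Bmp8b and Inhba, against 0.392% and 1.24% of 11730 genes. The family lay below DSS for 26 of 36 genes (72.2%), against 51.7% of all genes, with a median log2 ratio of -0.16 against -0.01. With arrays centred on their medians the family's median was 0.07, and it was -0.04 after quantile normalization. DSSPAR against CON left 0 of 38 genes at least 2-fold higher and 1 lower, Id4, against 3.51% and 2.1% of 11808 genes.

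**Figure D1:**
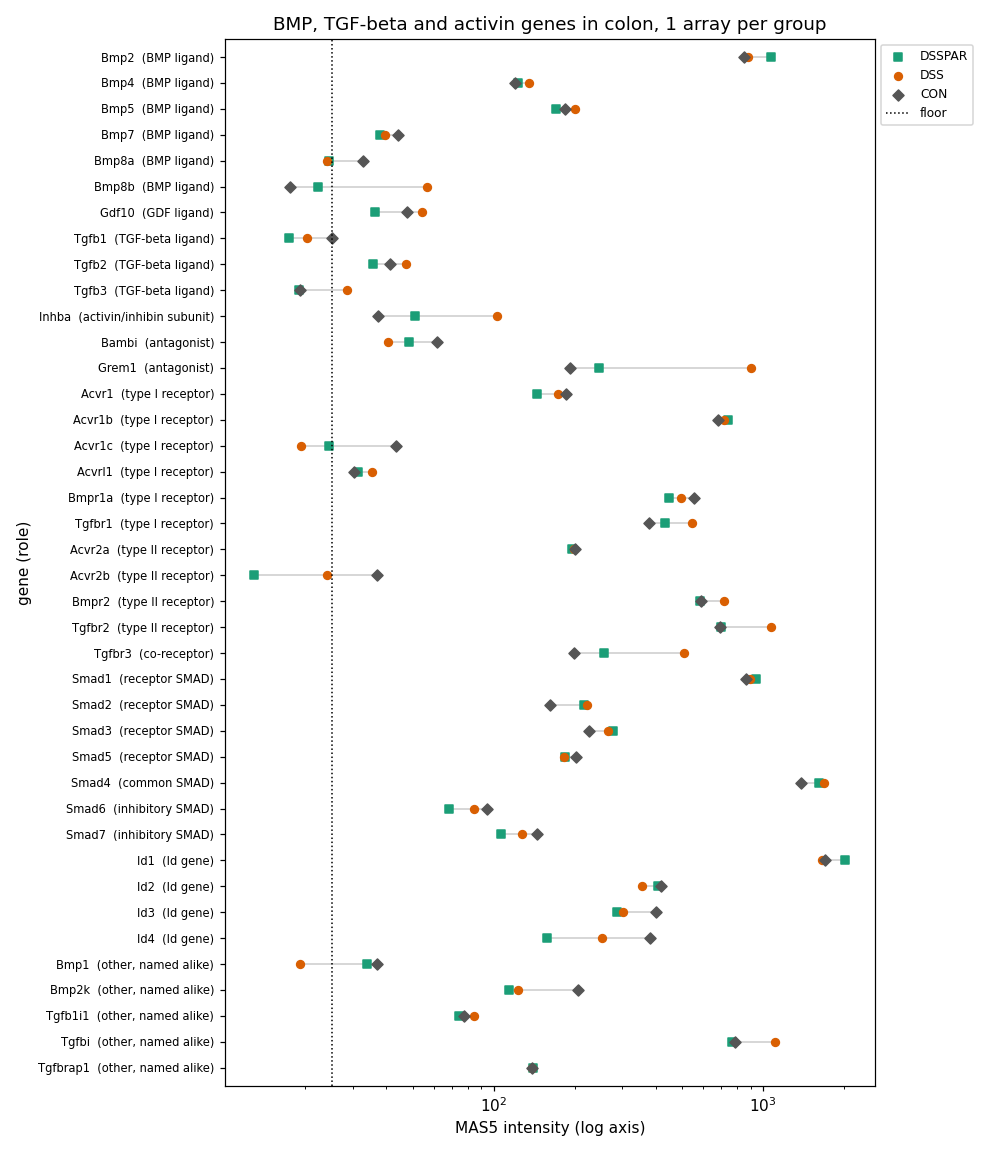
Intensity on a log axis of the 40 family genes above the floor (dotted line) on at least 1 colon array, 1 symbol per array for DSSPAR, DSS and CON. Grem1, Tgfbr3, Inhba and Bmp8b stand out by a DSS array far to the right of the other arrays, whereas most SMADs and receptors have their 3 symbols close together.

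Grem1, whose product gremlin 1 binds BMP2, BMP4 and BMP7 and keeps them from their receptors, had the largest ratio of the family. Its intensity was 246 in DSSPAR, 898 in DSS and 192 in CON colon. DSS stood 4.69-fold above CON (log2 2.23), DSSPAR stood 3.65-fold below DSS (log2 -1.87), and DSSPAR and CON differed by 1.28-fold (log2 0.36). Grem1 is read by 1 probe set, of a type that can match several transcripts. Bambi, a decoy receptor without a kinase and the other antagonist in the family, read 48.5 in DSSPAR, 40.6 in DSS and 61.5 in CON, with no ratio past 2-fold.

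Inhba encodes the beta A subunit, whose homodimer is activin A. It read 51.2 in DSSPAR, 103 in DSS and 37.4 in CON colon. DSS was thus 2.75-fold above CON (log2 1.46) and 2.005-fold above DSSPAR (log2 -1.003 for DSSPAR against DSS), while DSSPAR was 1.37-fold above CON (log2 0.45). The call against DSS sits at the threshold and was kept in 3 of 6 other ways of processing. Bmp8b, a BMP ligand best known from brown fat and germ cells, read 22.3 in DSSPAR, 56.7 in DSS and 17.6 in CON. It was above the floor in DSS alone, at least 2.26-fold above either of the other arrays.

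Tgfbr3, or betaglycan, is a co-receptor that presents TGF-beta2 to its receptors and binds inhibin. It read 256 in DSSPAR, 509 in DSS and 198 in CON colon. DSS stood 2.57-fold above CON (log2 1.36), and DSSPAR stood 1.99-fold below DSS (log2 -0.99), just inside the threshold. The signalling receptors for TGF-beta leaned the same way at smaller size. Tgfbr2, the type II receptor, read 699.6 in DSSPAR, 1065 in DSS and 692 in CON, a log2 ratio of 0.62 for DSS against CON and -0.61 for DSSPAR against DSS. Tgfbr1, the type I receptor, read 432 in DSSPAR, 543 in DSS and 377 in CON, with log2 ratios of 0.53 and -0.33 for the same comparisons. Each of the 3 receptors rests on 1 probe set above the floor. None of the other 9 receptor genes passed 2-fold in any colon comparison.

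The TGF-beta ligands were near the floor in colon. Tgfb1, the isoform most tied to inflammation and fibrosis, read 17.4 in DSSPAR, 20.3 in DSS and 25.2 in CON, above the floor only in CON, so its ratios say little. Tgfb2 read 35.8 in DSSPAR, 47.3 in DSS and 41.4 in CON on its brightest probe set. For DSS against CON this gave a log2 ratio of 0.20, but its other measured probe sets gave -0.20 and -0.12. All 3 lay below DSS in DSSPAR. Tgfb3 was above the floor only in DSS, at 28.5. Bmp2 and Bmp4 were nearly level. Bmp2 read 1073 in DSSPAR, 877 in DSS and 851 in CON, and Bmp4, which is made by the stroma, read 123 in DSSPAR, 135 in DSS and 119 in CON. The log2 ratios of Bmp2 and Bmp4 lay between -0.13 and 0.33, and those of Bmp5 and Bmp7 on the brightest probe sets between -0.24 and 0.12. All 3 Bmp5 probe sets were highest in DSS, and 1 of them gave a log2 ratio of 0.71 for DSS against CON and -0.72 for DSSPAR against DSS. The other measured Bmp7 probe set, above the floor in DSS alone, gave 0.39 and -0.39.

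The SMADs, which carry the signal to the nucleus, had no member past 2-fold in colon on the brightest probe set. Smad4, the common partner, read 1604 in DSSPAR, 1677 in DSS and 1383 in CON, and all 3 of its probe sets were above CON in DSS. Smad3, downstream of TGF-beta and activin, read 277 in DSSPAR, 265 in DSS and 226 in CON. Smad1, downstream of BMPs, read 939 in DSSPAR, 893 in DSS and 860 in CON on its brightest probe set, but a dimmer one read 102 in DSSPAR, 189 in DSS and 209 in CON (log2 -1.03 for DSSPAR against CON). Smad5, likewise a BMP SMAD, read 185 in DSSPAR, 183 in DSS and 203 in CON, and a dimmer probe set 87.8 in DSSPAR, 117 in DSS and 203 in CON (log2 -1.21). The Smad1 probe sets thus lay on both sides of CON in DSSPAR. All 3 Smad5 probe sets lay below CON in DSSPAR and in DSS, but differed in size. Both inhibitory SMADs were lowest in DSSPAR and highest in CON. Smad7, which blocks TGF-beta receptors, read 107 in DSSPAR, 127 in DSS and 145 in CON, and Smad6, which mainly blocks BMP signalling, read 68.3 in DSSPAR, 84.3 in DSS and 94.5 in CON. The log2 ratios of DSSPAR to CON were -0.44 and -0.47. A further Smad7 probe set had the same order at a larger step, 44.9 in DSSPAR, 50.3 in DSS and 123 in CON (log2 -1.45 for DSSPAR against CON and -1.29 for DSS against CON).

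The Id genes encode inhibitors of basic helix-loop-helix factors and are direct BMP targets. On the probe set that represents each gene, all 4 lay below CON in DSS colon (median log2 -0.32), beside 45.9% of all genes. Id3 (log2 -0.40) and Id4 (log2 -0.59) were the lowest. Id1 was nearly level (log2 -0.03), and Id2 turned from -0.24 to 0.20 when its probe sets were averaged. Quantile normalization likewise left 4 of 4 below CON, and centring on the array medians left 3 of 4. Only Id4 passed 2-fold in any comparison. Id4 read 158 in DSSPAR, 252 in DSS and 379 in CON, 2.40-fold lower in DSSPAR than in CON (log2 -1.26). All 3 of its probe sets lay on the same side, but the other ones gave -0.70 and -0.77, and the mean over probe sets was -0.91, inside 2-fold, as was the ratio with arrays centred on their medians (-0.98). Id3 read 287 in DSSPAR, 302 in DSS and 399 in CON (log2 -0.47 for DSSPAR against CON). Id1 read 2016 in DSSPAR, 1658 in DSS and 1689 in CON, with ratios under 1.22-fold. Id2 read 405 in DSSPAR, 354 in DSS and 417 in CON on its brightest probe set, and 106 in DSSPAR, 158 in DSS and 79.4 in CON on the next, so its probe sets disagreed for DSS against CON.

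**Figure D2:**
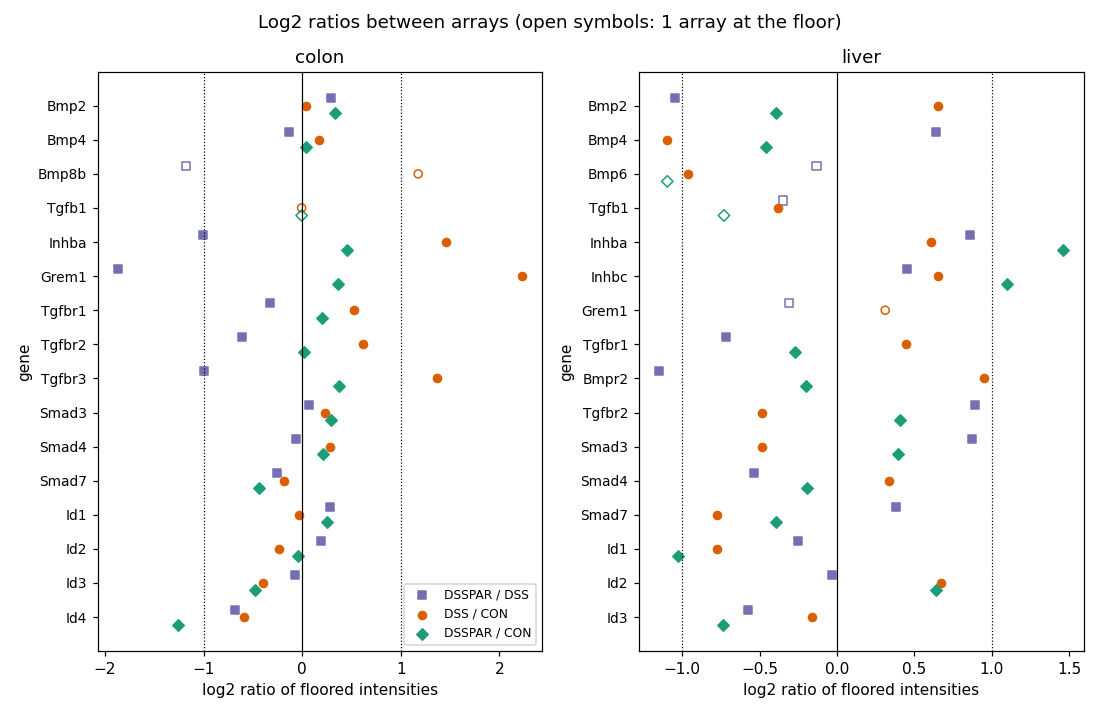
Log2 ratios of the genes described one by one, in colon (left) and liver (right), for DSSPAR over DSS (squares), DSS over CON (circles) and DSSPAR over CON (diamonds), with open symbols where 1 array was at the floor and dotted lines at 2-fold. In colon Grem1 lies at 2.23 for DSS over CON and -1.87 for DSSPAR over DSS, and in liver Inhba and Inhbc are the diamonds right of the upper line.

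Among the 33 genes above the floor on all colon arrays, DSS was the highest array for 15 (45.5%), against 33.8% of 10544 genes, and DSSPAR the lowest for 15 (45.5%), against 28.6%. Most of these differences were small. The range over the 3 arrays had a median of 0.33 (log2), against 0.42 for all genes, and 26 of the 33 genes stayed within 1.5-fold. The counts of highest and lowest arrays used the deposited scaling only. On that scaling 26 of 36 genes lay below DSS in DSSPAR. With arrays centred on their medians 16 of 39 did so, and 22 of 39 after quantile normalization. Where a gene had several measured probe sets they lay on 1 side for 12 of 19 genes in DSS against CON, 11 of 17 in DSSPAR against DSS and 10 of 17 in DSSPAR against CON. Of the 5 genes that share only the name pattern, Tgfbi, a matrix protein induced by TGF-beta, read 766 in DSSPAR, 1105 in DSS and 787 in CON, with 4 of 4 probe sets above CON in DSS and below DSS in DSSPAR. Bmp1 (a procollagen protease), Bmp2k (a kinase), Tgfb1i1 and Tgfbrap1 had no ratio past 2-fold.

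Genes of the pathway outside the name rule were read from lists chosen with earlier results of these data known. Of 15 secreted antagonists, 11 were measured in DSS against CON in colon (median log2 ratio 0.35, against 0.04 for all genes). Of these, 2 were at least 2-fold higher and 0 lower, beside 5.18% and 1.97% of all genes. In DSSPAR against DSS 9 of 11 lay below (median -0.43), beside 51.7% of all genes. At 2-fold 0 were higher and 1 was lower, beside 0.392% and 1.24% of all genes. Chrdl2, a chordin-like BMP antagonist, read 58.8 in DSSPAR, 165 in DSS and 17.2 in CON, at least 6.57-fold above CON in DSS, 2.80-fold below DSS in DSSPAR and at least 2.35-fold above CON in DSSPAR. Fstl1, a secreted follistatin-like protein of mesenchymal cells, read 318 in DSSPAR, 498 in DSS and 238 in CON, 2.09-fold above CON in DSS. Grem1, Chrdl2 and Fstl1 were thus higher in DSS than in CON, whereas Bambi (log2 -0.60) and Nbl1 (log2 -0.01) were not.

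Of 3 measured co-receptors outside the rule, endoglin (Eng), the endothelial TGF-beta co-receptor, read 35.6 in DSSPAR, 88.8 in DSS and 41.6 in CON, 2.14-fold above CON in DSS and 2.49-fold below DSS in DSSPAR. Of 9 measured genes of TGF-beta latency and activation, 1 was higher and 0 lower in DSS against CON, beside 5.18% and 1.97% of all genes, and 0 were higher and 2 lower in DSSPAR against DSS, beside 0.392% and 1.24%. Nrros, which tethers latent TGF-beta on myeloid cells, read 50.5 in DSSPAR, 69.2 in DSS and 22.2 in CON, at least 2.76-fold above CON in DSS and at least 2.01-fold above CON in DSSPAR. Thbs1, an activator of latent TGF-beta, read 32.9 in DSSPAR, 97.0 in DSS and 57.9 in CON, 2.95-fold below DSS in DSSPAR. Itgb6, the epithelial integrin subunit that releases TGF-beta, read 32.5 in DSSPAR, 68.6 in DSS and 53.3 in CON, 2.11-fold below DSS in DSSPAR. None of 12 intracellular regulators passed 2-fold in any colon comparison.

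The TGF-beta response genes did not share a direction in colon. Of 11 measured, 1 was at least 2-fold higher and 1 lower in DSS against CON (median log2 0.36), beside 5.18% and 1.97% of all genes. Col1a2, a chain of type I collagen, read 1269 in DSSPAR, 1921 in DSS and 852 in CON, 2.25-fold above CON in DSS. Ccn2, or connective tissue growth factor, went the other way and read 136 in DSSPAR, 111 in DSS and 239 in CON, 2.14-fold below CON in DSS.

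Markers of other cells differed between the same colon arrays. Fibroblast markers summed to 8972 in DSSPAR, 11744 in DSS and 6269 in CON. For DSS against CON 3 of 8 were at least 2-fold higher (median log2 0.97), and all 8 lay below DSS in DSSPAR (median -0.40). Endothelium markers summed to 461 in DSSPAR, 739 in DSS and 456 in CON, with 2 of 8 at least 2-fold higher in DSS against CON. Macrophage markers summed to 6377 in DSSPAR, 6750 in DSS and 1912 in CON, with 7 of 8 at least 2-fold higher in DSS against CON (median 1.84). Smooth muscle markers summed to 14040 in DSSPAR, 13865 in DSS and 15832 in CON, with 0 of 8 past 2-fold. No marker was at 0. The fibroblast, endothelium, macrophage and pancreas sums, like Grem1, were highest in DSS, and their part in the Grem1, Tgfbr3, Inhba, Chrdl2 and Eng values was not tested.

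**Figure D3:**
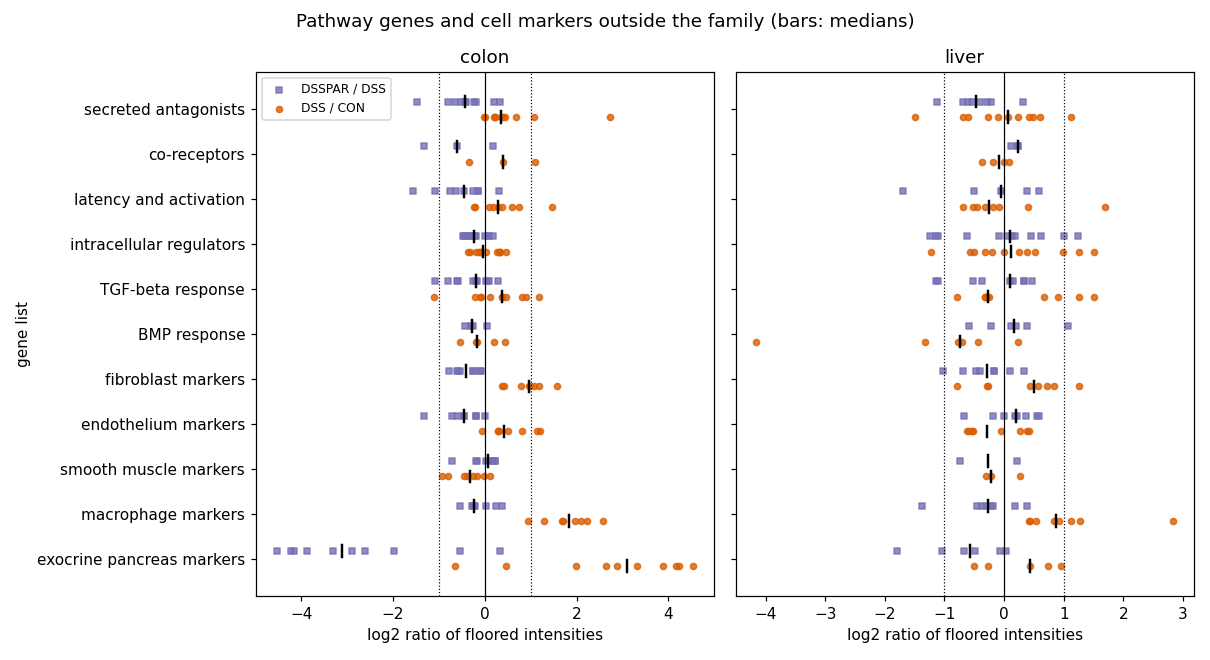
Log2 ratios of pathway genes outside the family and of cell type markers, in colon (left) and liver (right), 1 point per measured gene, for DSSPAR over DSS (squares) and DSS over CON (circles), with bars at the medians and dotted lines at 2-fold. In colon the medians of the fibroblast, macrophage and pancreas markers lie right of 0 for DSS over CON (0.97, 1.84 and 3.10), with 1 pancreas marker left of 0, and in liver the lowest point of the BMP response is Hamp2.

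In liver nearly the whole family lay inside 2-fold. For DSS against CON 0 of 47 measured genes were at least 2-fold higher and 1 was lower, the ligand Bmp4, against 4.73% and 4.2% of 13034 genes. For DSSPAR against DSS 0 of 41 were higher and 2 lower, Bmp2 and Bmpr2, against 2.8% and 4.23% of 12398 genes. For DSSPAR against CON 2 of 44 were higher, the activin subunits Inhba and Inhbc, and 2 lower, Bmp6 and Id1, against 3.26% and 3.45% of 12721 genes. These shares are near or below those of all genes. With arrays centred on their medians the calls were 1 higher and 0 lower for DSS against CON, 3 higher and 0 lower for DSSPAR against DSS and 2 higher and 0 lower for DSSPAR against CON, so the split by direction depended on the scaling. The log2 ratios that then lay inside 2-fold were -0.96 for Bmp4 in DSS against CON, -0.88 for Bmp2 and -0.99 for Bmpr2 in DSSPAR against DSS, and -0.91 for Bmp6 and -0.72 for Id1 in DSSPAR against CON. The family's median log2 ratios were 0.04, -0.03 and -0.13 for the 3 comparisons, against -0.02, -0.02 and -0.04 for all genes. For DSSPAR against CON 30 of 44 genes (68.2%) lay below CON, against 53.8% of all genes, but with arrays centred on their medians the family's median turned to 0.13.

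**Figure D4:**
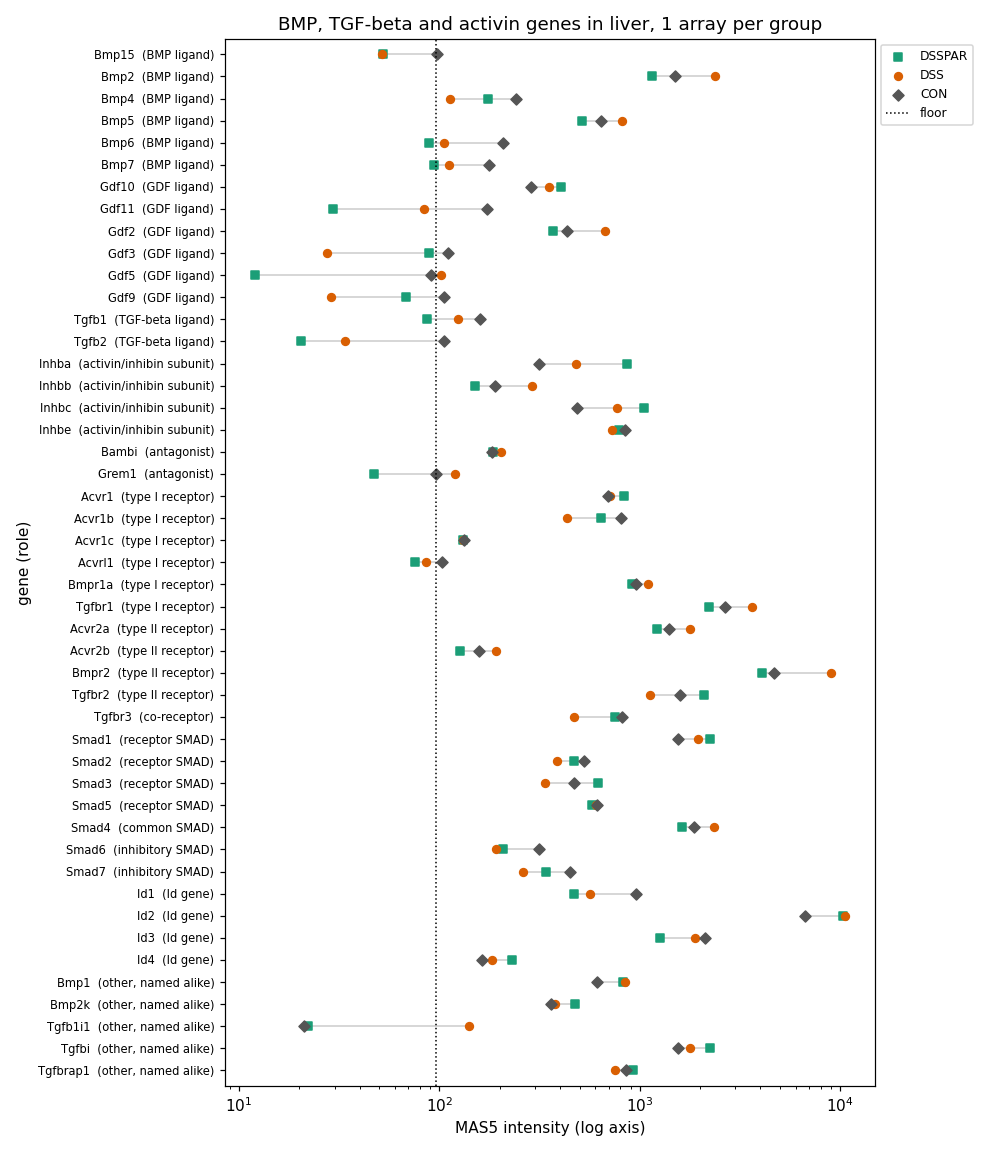
Intensity on a log axis of the 47 family genes above the floor (dotted line) on at least 1 liver array, 1 symbol per array for DSSPAR, DSS and CON. Inhba and Inhbc are in the order CON, DSS, DSSPAR from left to right, Bmpr2 and Bmp2 have DSS to the right, and Bmp6 and Id1 have CON to the right.

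Of the activin subunit genes, Inhbc and Inhbe are expressed mainly in liver. Inhbc, the beta C subunit, read 1048 in DSSPAR, 767 in DSS and 488 in CON liver. DSSPAR stood 2.15-fold above CON (log2 1.10), past 2-fold in 7 of 7 other ways of processing, with DSS in between (log2 0.65 against CON). Inhba read 865 in DSSPAR, 478 in DSS and 314 in CON on its brightest probe set, 2.76-fold above CON in DSSPAR (log2 1.46). Its other probe set read 52.1 in DSSPAR, 23.4 in DSS and 122 in CON, on the opposite side, and the mean over both gave a log2 ratio of 0.57. Inhbb, the beta B subunit and itself a hepcidin inducer in mice, had another order, with 150 in DSSPAR, 291 in DSS and 190 in CON (log2 -0.96 for DSSPAR against DSS). Its other probe set read 193 in DSSPAR, 242 in DSS and 59.2 in CON, so the probe sets disagreed on the side of CON for DSSPAR. Inhbe, the beta E subunit, read 786 in DSSPAR, 724 in DSS and 846 in CON, within 1.17-fold.

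The BMP ligands split in liver. Bmp2 read 1149 in DSSPAR, 2373 in DSS and 1507 in CON, 2.06-fold lower in DSSPAR than in DSS (log2 -1.05) and 1.57-fold above CON in DSS. Gdf2, the BMP9 gene of stellate cells, had the same order of arrays at 368 in DSSPAR, 670 in DSS and 433 in CON. Bmp4 was instead lowest in DSS, at 175 in DSSPAR, 113 in DSS and 242 in CON, 2.14-fold lower in DSS than in CON (log2 -1.10). Its DSS value lay near the floor of 96.6. Bmp6, the endothelial ligand most needed for iron control, read 88.7 in DSSPAR, 106 in DSS and 207 in CON. It was at least 2.14-fold lower in DSSPAR and 1.95-fold lower in DSS than in CON, and the DSSPAR and DSS arrays lay near the floor. Tgfb1 read 86.9 in DSSPAR, 123 in DSS and 160 in CON, and its other probe set gave the opposite side for DSS against CON. Bmp15, Gdf3, Gdf5, Gdf9, Gdf11 and Tgfb2 were above the floor on 1 liver array each. Of the antagonists, Grem1 read 47.1 in DSSPAR, 119.9 in DSS and 95.9 in CON liver, above the floor in DSS alone, and Bambi read 185 in DSSPAR, 204 in DSS and 183 in CON.

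Of the receptors, Bmpr2, the type II receptor of BMPs, read 4071 in DSSPAR, 9024 in DSS and 4669 in CON liver. DSSPAR stood 2.22-fold below DSS (log2 -1.15), and DSS stood 1.93-fold above CON (log2 0.95). Only 1 of its 3 probe sets was above the floor. Tgfbr1 had the same order, 2205 in DSSPAR, 3630 in DSS and 2660 in CON (log2 -0.72 for DSSPAR against DSS). Tgfbr2 was instead lowest in DSS and highest in DSSPAR, 2089 in DSSPAR, 1126 in DSS and 1578 in CON (log2 0.89). Tgfbr3 was lowest in DSS and highest in CON, with 749 in DSSPAR, 468 in DSS and 819 in CON (log2 0.68 for DSSPAR against DSS). Tgfbr1 and Tgfbr2, which form the TGF-beta receptor thus lay on opposite sides of DSS in liver and on the same side in colon.

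Among the SMADs of liver none passed 2-fold. Smad3 read 616 in DSSPAR, 336 in DSS and 469 in CON (log2 0.88 for DSSPAR against DSS), though its other probe sets lay near or under the floor. Smad4 read 1623 in DSSPAR, 2352 in DSS and 1860 in CON, and its 3 probe sets disagreed in every comparison. Both inhibitory SMADs were highest in CON. Smad7 read 340 in DSSPAR, 261 in DSS and 447 in CON (log2 -0.78 for DSS against CON), with its other probe set at 0.06. Smad6, whose promoter holds the palindrome, read 208 in DSSPAR, 191 in DSS and 313 in CON (log2 -0.71).

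The Id genes of liver were split as well. Id1, a common readout of hepatic BMP signalling, read 471 in DSSPAR, 561 in DSS and 960 in CON. DSSPAR stood 2.04-fold below CON (log2 -1.03) and DSS 1.71-fold below CON (log2 -0.78). Id3 had the same order, 1263 in DSSPAR, 1879 in DSS and 2105 in CON (log2 -0.74 for DSSPAR against CON). Id2 ran the other way, 10362 in DSSPAR, 10607 in DSS and 6650 in CON on its brightest probe set, but the next probe set held at 7259 in DSSPAR, 6816 in DSS and 7138 in CON. Id4 read 229 in DSSPAR, 184 in DSS and 163 in CON on its brightest probe set. Its other probe sets disagreed, with log2 ratios of -0.66 and 1.32 for DSS against CON. Each of Id1 and Id3 is read by 1 probe set.

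Hepcidin and other hepatic BMP targets, some of them family members, lay mostly below CON. Of 6 measured, which include Smad6 and Smad7 of the family, 5 were lower in DSS than in CON, beside 51.4% of all genes (median log2 -0.74, against -0.02). By at least 2-fold 2 were lower, Hamp and Hamp2, and 0 higher, beside 4.2% and 4.73% of all genes. Of the others outside the name rule, Tmprss6 lay below CON (log2 -0.43) and Bmper above it (log2 at least 0.23). Hamp read 9426 in DSSPAR, 14091 in DSS and 35496 in CON, 2.52-fold lower in DSS and 3.77-fold lower in DSSPAR than in CON. Hamp2, its near-identical paralog, read 1976 in DSSPAR, 944 in DSS and 16794 in CON, 17.8-fold lower in DSS and 8.50-fold lower in DSSPAR than in CON. Probes may not keep the 2 hepcidin genes apart, so their values are uncertain as single genes. Tmprss6, the protease that restrains hepcidin, read 7154 in DSSPAR, 6232 in DSS and 8417 in CON, and Hjv, the hepcidin co-receptor hemojuvelin, read 2579 in DSSPAR, 2385 in DSS and 2262 in CON.

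The extracellular lists gave single genes in liver. Among 11 measured secreted antagonists, 1 was higher and 1 lower in DSS against CON, beside 4.73% and 4.2% of all genes. Chrd, or chordin, read 72.6 in DSSPAR, 209.6 in DSS and 54.8 in CON. It was above the floor in DSS alone, at least 2.17-fold above either of the other arrays. Lefty1, an inhibitor of nodal, read 92.7 in DSSPAR, 128 in DSS and 359 in CON, 2.81-fold lower in DSS than in CON. Of 8 measured genes of TGF-beta latency and activation, 6 lay below CON in DSS (median log2 -0.25). Of the 8, 1 was higher and 0 were lower past 2-fold, beside 4.73% and 4.2% of all genes. The higher one was Itgav, the alpha V integrin subunit that activates latent TGF-beta. Itgav read 3024 in DSSPAR, 9821 in DSS and 3050 in CON, 3.22-fold above CON in DSS and 3.25-fold below DSS in DSSPAR. Its order was that of Bmpr2, Bmp2 and Tgfbr1.

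Of the 12 intracellular regulators, all measured in liver, 2 were higher and 1 lower in DSS against CON, beside 4.73% and 4.2% of all genes. In DSSPAR against DSS 2 were higher and 3 lower, beside 2.8% and 4.23% of all genes. Skil, the SMAD co-repressor SnoN, read 1543 in DSSPAR, 3317 in DSS and 1392 in CON, 2.38-fold above CON in DSS and 2.15-fold below DSS in DSSPAR. Pmepa1, a TGF-beta-induced inhibitor of receptor SMADs, read 125 in DSSPAR, 274 in DSS and 74.4 in CON, at least 2.84-fold above CON in DSS. Zfyve16, or endofin, a SMAD anchor, read 125 in DSSPAR, 296 in DSS and 149 in CON, 2.36-fold below DSS in DSSPAR. On the other side, Tgif1, a repressor of TGF-beta targets, read 307 in DSSPAR, 129 in DSS and 301 in CON, and Nedd4l, a ubiquitin ligase for SMADs and receptors, read 1085 in DSSPAR, 538 in DSS and 455 in CON, 2.02-fold above DSS and 2.39-fold above CON in DSSPAR. Skil and Pmepa1 are also on the TGF-beta response list. Of its 10 genes measured in DSS against CON, these 2 were at least 2-fold higher and 0 lower, beside 4.73% and 4.2% of all genes. Of the 10, 6 lay below CON (median log2 -0.27). In DSSPAR against DSS 0 of 9 were higher and the same 2 lower, beside 2.8% and 4.23% of all genes. Of 11 TGF-beta response genes measured in DSSPAR against CON, 6 lay below CON (median log2 -0.10). Of the 11, 1 was higher and 0 were lower past 2-fold, beside 3.26% and 3.45% of all genes. That gene was Fn1, fibronectin, which read 28529 in DSSPAR, 20694 in DSS and 13018 in CON, 2.19-fold above CON in DSSPAR.

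Over the 35 family genes above the floor on all liver arrays, the highest array was DSSPAR for 11, DSS for 13 and CON for 11. DSSPAR was the lowest for 14 (40.0%), against 31.3% of 10131 genes. These counts likewise used the deposited scaling only. The range over the 3 arrays had a median of 0.65 (log2), against 0.57 for all genes, and 16 of the 35 genes stayed within 1.5-fold. Probe sets of a gene lay on 1 side for 10 of 22 genes in DSS against CON, 8 of 21 in DSSPAR against DSS and 8 of 22 in DSSPAR against CON. Liver ratios therefore rest on a wider spread between probe sets than colon ratios, 0.56 against 0.41 for DSS against CON.

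**Figure D5:**
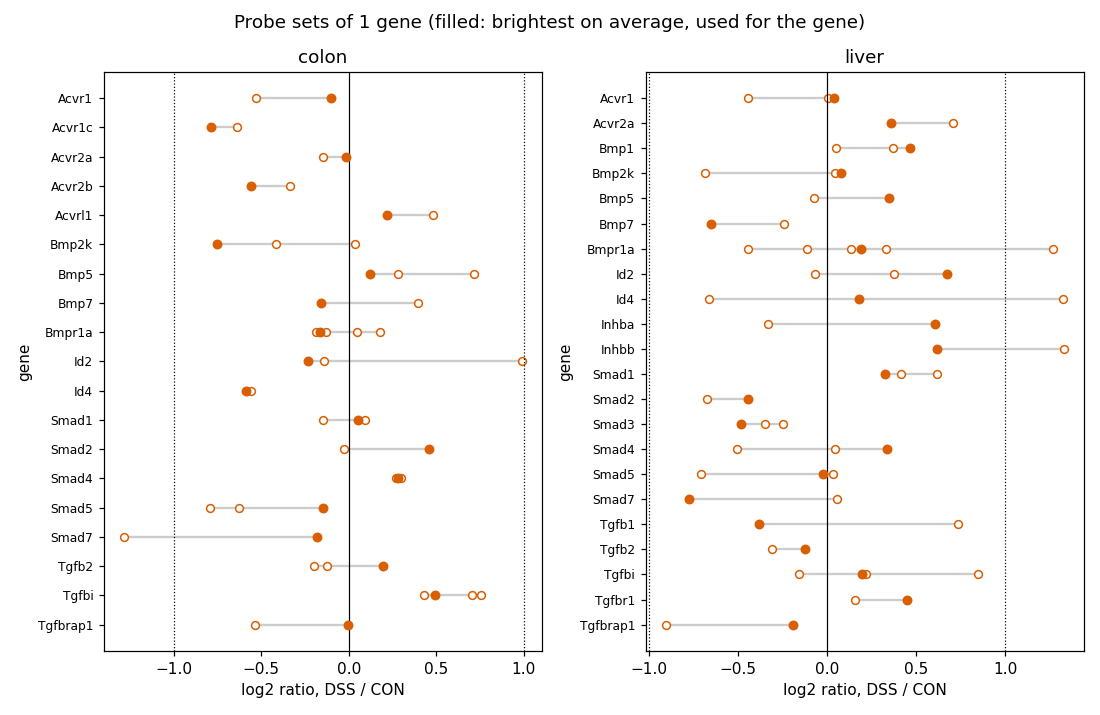
Log2 ratio of DSS over CON for each measured probe set of the family genes with several, in colon (left) and liver (right), with the probe set that represents the gene filled and the others open. The probe sets of Id4, Smad4 and Tgfbi in colon lie close together, while those of Id2 in colon and of Id4, Inhba and Smad4 in liver lie on both sides of 0.

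Markers of several cell types differed between the liver arrays. Endothelium markers summed to 3896 in DSSPAR, 3660 in DSS and 3950 in CON and stellate cell markers to 8325 in DSSPAR, 9028 in DSS and 9632 in CON, with none of 8 and none of 7 past 2-fold. Hepatocyte markers summed to 468112 in DSSPAR, 742498 in DSS and 552445 in CON, with none of 8 past 2-fold (median log2 -0.64 for DSSPAR against DSS and 0.41 for DSS against CON, and 0.10 and -0.04 after quantile normalization). Fibroblast markers summed to 14759 in DSSPAR, 20462 in DSS and 13382 in CON, with 1 of 8 at least 2-fold higher in DSS against CON (median 0.50) and 1 of 8 lower in DSSPAR against DSS (median -0.29). Of 6 measured pancreas markers 2 were at least 2-fold lower in DSSPAR against DSS (median -0.58). Macrophage markers summed to 28426 in DSSPAR, 29401 in DSS and 16744 in CON, with 3 of 8 at least 2-fold higher in DSS against CON. The hepatocyte and fibroblast sums and the Gapdh 3′ to 5′ ratio were highest in DSS, like Bmp2, Bmpr2, Tgfbr1 and Itgav, whereas the same ratio for beta-actin was 2.63 in DSSPAR, 3.53 in DSS and 3.55 in CON. Their part in those values was not tested.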

How the data were processed

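The deposited values are MAS5 intensities on a linear scale, 1 per probe set and array, per the submitters' processing notes. Neither version nor scaling target nor genome build is given in the sources used here. MAS5 scales each array by a single factor, and that scaling was kept. Both tissues were analysed apart. Each column matched 1 sample's labels, so 0 value columns went unused.

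Gene names came from the array's annotation in GEO. Of 45101 probe sets in all, 34958 carried 1 symbol, 932 carried several and 9211 were not listed, and the last kinds stayed out. All 113 probe sets of the family were found by Entrez identifier, 24 of them of a type that can match several transcripts, and 20 genes had 1 probe set. The probe set with the highest mean log2 intensity in a tissue stood for its gene.

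With 1 array of pooled RNA per group there is no test, no replicate error and no p-value. The number of arrays limits the precision. Ratios were taken over intensities floored at the tissue's median, and genes past 2-fold were counted for the family and for all genes. Intensities in all 3 arrays are given for members past 2-fold in a tissue, for 13 core genes whatever their values, and for up to 4 genes per list outside the family with the largest ratios, and other values shown were added after they were seen. The members, the lists and this rule were chosen with earlier results of these data known. The procedure was tested on simulated data. Alternatives were no floor, a floor at the upper quartile (75th percentile), 3 other scalings, the mean over probe sets, leaving out shared probe sets and a 3-fold threshold. Python 3.11.15, NumPy 2.4.6, pandas 2.3.3 and matplotlib 3.10.9 were used.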

Additional observations from a re-analysis of the deposited data

Results flagged for a closer look

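Ratios of Tgfbr3, Tgfbr2 and Inhba were at least 1.5-fold off in each tissue and ran in opposite directions in colon and liver. These differences between tissues were not tested, as each rests on 1 array per group. For Tgfbr3, the log2 ratio of DSS to CON was 1.364 in colon and -0.808 in liver, and that of DSSPAR to DSS was -0.991 in colon and 0.68 in liver. For Tgfbr2, the log2 ratio of DSSPAR to DSS was -0.606 in colon and 0.892 in liver. For Inhba, the log2 ratio of DSSPAR to DSS was -1.003 in colon and 0.857 in liver. Each gene had 1 probe set behind its value in these comparisons, and both comparisons of Tgfbr3 share the DSS arrays.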

How the results depend on the processing

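No paired analysis was possible because each group has 1 array per tissue, and for the same reason no replicate could be left out. Counts of family genes at least 2-fold off in either direction depended mostly on the floor. With no floor colon had 10 between DSS and CON, 6 between DSSPAR and DSS and 5 between DSSPAR and CON, in place of 4, 3 and 1, and liver had 9, 10 and 10 in place of 1, 2 and 4, while the share of all genes off was between 15.5% and 26.5%. With the floor at the 75th percentile they were 2 and 1 for the first comparisons in colon and 0 for DSS against CON in liver. At 3-fold, 1, 1 and 0 were left in colon and 0, 0 and 0 in liver. With arrays centred on their medians, DSSPAR against CON gave 0 in colon and 2 in liver. With the mean over probe sets it gave 0 in colon. In liver, centring on the medians turned the calls of DSSPAR against DSS from 0 higher and 2 lower to 3 higher and 0 lower, and left Bmp4 at -0.955 and Bmpr2 at 1.096 for DSS against CON. Centring on probe sets above the floor, added after the data were seen, gave 3 calls there. No ratio of a gene past 2-fold turned its sign. Grem1 for DSS against CON stayed between 2.20 and 2.31 (log2), Tgfbr3 between 1.32 and 1.45, Inhbc in liver between 1.04 and 1.41, and Inhba in liver between 0.56 and 1.77. Signal near the floor limits Tgfb1, Bmp8b, Bmp6, Chrd and, in liver, Bmp4.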
